A study of Mus musculus with 6 samples.

Results

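The transcripts of 10 MAP kinase phosphatase genes were followed in N2a cells after knockdown of the circular RNA circRtn4. The genes were Ptprr, Ptpn5, Dusp1, Dusp4, Dusp5, Dusp6, Dusp7, Dusp8, Dusp10 and Dusp16, taken by symbol from a table of 54532 listed genes. They were chosen by their FPKM values in these same libraries, in which Ptprr and Dusp4 had been seen to differ between the groups. Their differences are therefore given as a description. Of the 10, 9 were part of a fit over the whole table, and its p-values are no independent test of them.

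N2a, or Neuro2A, is a line of mouse neuroblastoma cells. The labels give C57BL/6 as its strain, which the paper names only for its mice and their cortical neurons. Total RNA was sequenced from 3 libraries of cells transfected with a control siRNA (si-NC) and from 3 libraries of cells transfected with an siRNA to the back-splice junction of circRtn4 (si-circRtn4), which is the comparison made here. Rtn4, the gene that gives rise to circRtn4, measured 61.0, 66.8 and 69.8 FPKM under si-NC and 50.1, 56.7 and 62.7 FPKM under si-circRtn4. The groups overlapped, although Rtn4 was lower under si-circRtn4 at each replicate number. By qRT-PCR, the paper reports an efficient knockdown of circRtn4 in N2a cells and no significant change of linear Rtn4. A gene's FPKM does not separate linear from circular RNA, so the knockdown of circRtn4 cannot be read from it. All 6 libraries come from 1 line under transient transfection. Retinoic acid differentiation is part of the general procedure for N2a cells, while the labels name the growth medium alone, so the state of these cells is not settled by the sources used here.

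MAP kinases pass signals from growth factor receptors and from stress to the nucleus, and they are active only while a threonine and a tyrosine in their activation loop carry phosphate. Dual-specificity phosphatases of the DUSP family remove both phosphates, and several of them are themselves transcribed in response to MAP kinase activity, so that they form a negative feedback loop. PTPRR and PTPN5 belong to another family, the classical tyrosine phosphatases, and bind MAP kinases through a kinase interaction motif (KIM); PTPN5 is best known from neurons of the striatum.

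Short sequences of the knockdown and of the microRNA that the study follows are shown first, because their 7-base seed sites were searched for in the 3′ UTRs of the 10 genes. Capitals mark bases 2 to 8 of the microRNA (RefSeq), and in the siRNA the site that pairs with bases 2 to 8 of its guide strand. The strand listed for the siRNA was assumed to be the passenger, and the guide its reverse complement.
mmu-miR-24-3p: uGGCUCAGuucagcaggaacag
si-circRtn4, listed strand: cttcagatgagACCCTTTt

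A site for the miR-24-3p seed (CTGAGCC) was present in the longest annotated 3′ UTR of 3 of the 10 genes, against 19.6% of the 10694 genes tested that have an annotated 3′ UTR. Those of Ptpn5 and Dusp8 lie on the minus strand at chr7:47078106-47078112 and chr7:142081436-142081442 of GRCm38 and are shown with the site in capitals.
Ptpn5: accccaaagatCTGAGCCctgaggggggcc
Dusp8: cttgccacaaaCTGAGCCgcagacccctcc

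The site of the siRNA guide seed (ACCCTTT) was found in 0 of the 10 genes and in 12.5% of the 10694. The 3′ UTR of Ptprr, 1106 bases long, held neither site. Nothing is read from the sites about the members' differences. A match of letters is not a measured binding site, and the UTR used by these cells was not determined.

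Ptprr, the receptor-type member of the KIM phosphatases, had the largest fold difference of the 10 between the groups. Its gene (ENSMUSG00000020151) lies on the plus strand at chr10:116018213-116274932. Ptprr measured 7.95, 7.25 and 6.16 FPKM under si-NC and 1.45, 1.25 and 1.60 FPKM under si-circRtn4. All 3 knockdown libraries were low, and the highest of them lay well under the lowest control library. FPKM counts fragments relative to the length of a gene and the depth of sequencing, so levels of different genes can be set side by side. The mean was 7.12 ± 0.901 FPKM (SD, n = 3) in the controls and 1.43 ± 0.178 FPKM (SD, n = 3) after the knockdown, where 20.1% of the control level was left, a 4.97-fold difference. On the log2(FPKM + 1) scale, which understates differences at low levels, the log2 fold change was -1.74 (standard error 0.11). With 0.1 in place of 1 as the pseudocount it was -2.24, and leaving out any 1 library gave -1.82 to -1.66. Between 115 and 711 reads per library stood behind these values. In bulk RNA, fewer cells that express a gene and less RNA of it per cell cannot be told apart.

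Ptpn5, the striatum-enriched KIM phosphatase (ENSMUSG00000030854, minus strand, chr7:47077795-47133684), was barely detected. It had 4, 0 and 2 reads under si-NC and 7, 3 and 1 reads under si-circRtn4. Its highest value was 0.0849 FPKM, and the 0 of si-NC replicate 2 allows up to 0.0359 FPKM by a limit of 3 reads, which covers counting error only. The groups overlapped, no difference was detectable at this depth, and Ptpn5 was not fitted because its mean was under 1 FPKM. Ptpn7, the remaining phosphatase with this motif and best known from blood cells, had a mean of 0.152 FPKM and a highest value of 0.258 FPKM. Ptprr was therefore the only one of the 3 KIM phosphatases above 1 FPKM in any library.

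**Figure D1:**
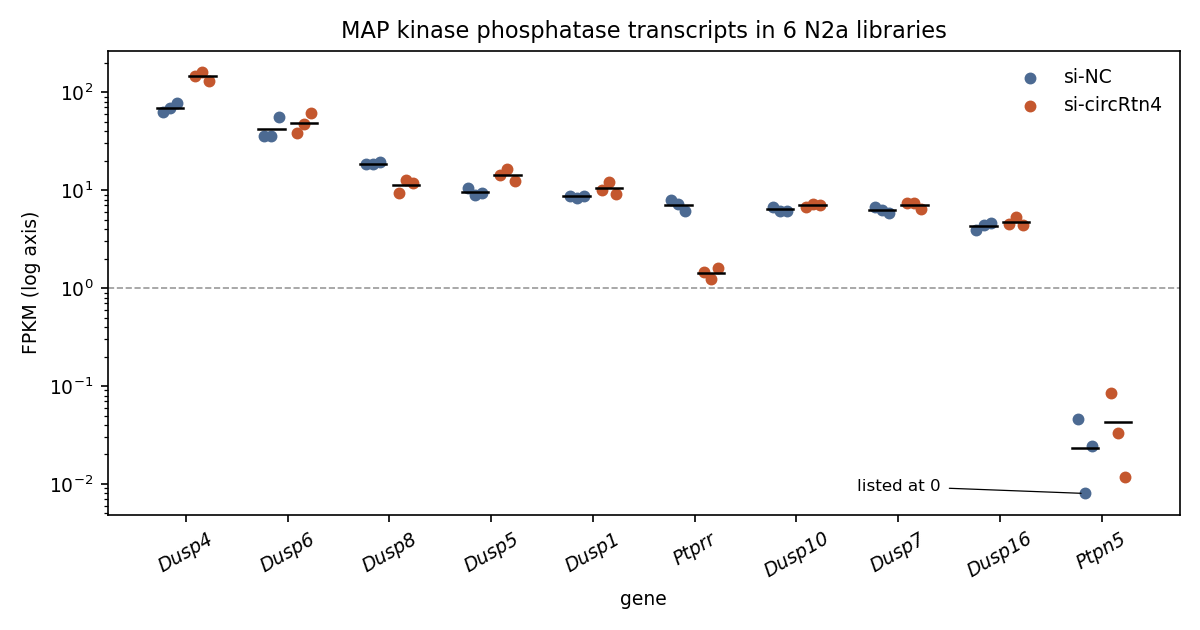
FPKM of the 10 genes in each of the 6 libraries on a log axis, si-NC in blue and si-circRtn4 in orange, with a bar at each group's mean and a dashed line at 1 FPKM. Genes are ordered by their si-NC mean; Ptprr is at 6.16 to 7.95 in si-NC and at 1.25 to 1.60 in si-circRtn4, and the 1 library in which Ptpn5 is listed at 0 is drawn at the foot of the axis.

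Dusp4 encodes an inducible nuclear phosphatase that acts on ERK, JNK and p38. It was the most abundant of the 10 transcripts in every library and was higher after the knockdown. Dusp4 (ENSMUSG00000031530, plus strand, chr8:34807297-34819894) measured 63.0, 68.2 and 76.6 FPKM under si-NC and 146, 161 and 130 FPKM under si-circRtn4. The groups did not overlap, and libraries of the same replicate number differed 2.32-, 2.36- and 1.69-fold. The means were 69.3 ± 6.87 FPKM (SD, n = 3) and 146 ± 15.7 FPKM (SD, n = 3), a ratio of 2.10 and a log2 fold change of 1.06 (standard error 0.11).

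Dusp5, a nuclear phosphatase specific for ERK (ENSMUSG00000034765, plus strand, chr19:53529109-53542431), was higher by less. It measured 10.5, 9.002 and 9.30 FPKM under si-NC and 14.2, 16.2 and 12.4 FPKM under si-circRtn4. The groups did not overlap, although si-circRtn4 replicate 3 was within 2 FPKM of si-NC replicate 1. The means were 9.59 ± 0.778 and 14.3 ± 1.92 FPKM (SD, n = 3 each), a ratio of 1.49 and a log2 fold change of 0.52 (standard error 0.11).

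Dusp1, the immediate-early nuclear phosphatase of stressed and stimulated cells (ENSMUSG00000024190, minus strand, chr17:26505590-26508519 in the deposited table), measured 8.77, 8.38 and 8.74 FPKM under si-NC and 10.1, 12.1 and 9.18 FPKM under si-circRtn4. The groups did not overlap, but the 3 knockdown libraries were spread more widely than the controls, and replicate 3 was close to them. The log2 fold change was 0.24 (standard error 0.10), and leaving out 1 library at a time moved it between 0.14 and 0.32.

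Dusp8 encodes a phosphatase that prefers JNK and p38 and is known for its expression in brain. It was lower after the knockdown. Dusp8 (ENSMUSG00000037887, minus strand, chr7:142079490-142095843) measured 18.4, 18.3 and 19.4 FPKM under si-NC and 9.41, 12.7 and 11.7 FPKM under si-circRtn4. The control libraries lay close together and all above the knockdown libraries, of which replicate 1 was the lowest. The means were 18.7 ± 0.618 and 11.3 ± 1.70 FPKM (SD, n = 3 each), so that 60.4% of the control level was left, with a log2 fold change of -0.69 (standard error 0.11).

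The other JNK- and p38-directed members stayed near their control level. Dusp10, which dephosphorylates p38 and JNK (ENSMUSG00000039384, plus strand, chr1:184013302-184075636), measured 6.77, 6.13 and 6.15 FPKM under si-NC and 6.77, 7.24 and 7.08 FPKM under si-circRtn4. The groups overlapped through replicate 1 of each, and the log2 fold change was 0.13 (standard error 0.07). The antisense gene 1700056E22Rik overlaps Dusp10 and had means of 0.968 and 1.63 FPKM; whether the authors' counting used strand is not given in the sources used here. Dusp16, a cytoplasmic phosphatase for JNK and p38 (ENSMUSG00000030203, minus strand, chr6:134715468-134792625), measured 3.91, 4.43 and 4.57 FPKM under si-NC and 4.53, 5.35 and 4.401 FPKM under si-circRtn4. The groups overlapped, with a log2 fold change of 0.12 (standard error 0.10).

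The cytoplasmic phosphatases of ERK did not separate the groups either. Dusp6, a feedback inhibitor that ERK signalling itself induces (ENSMUSG00000019960, plus strand, chr10:99263231-99267489), measured 35.5, 35.5 and 55.4 FPKM under si-NC and 38.5, 46.8 and 61.4 FPKM under si-circRtn4. Replicate 3 was the highest library of both groups, and the libraries within a group differed more than the groups did. The log2 fold change was 0.21 (standard error 0.21), the least precise of the 9 fitted, and libraries of the same number had ratios of 1.08, 1.32 and 1.11. Dusp7, a close relative of Dusp6 (ENSMUSG00000053716, plus strand, chr9:106368632-106375724), measured 6.73, 6.20 and 5.81 FPKM under si-NC and 7.39, 7.45 and 6.35 FPKM under si-circRtn4. The groups overlapped through si-circRtn4 replicate 3, with a log2 fold change of 0.15 (standard error 0.09).

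**Figure D2:**
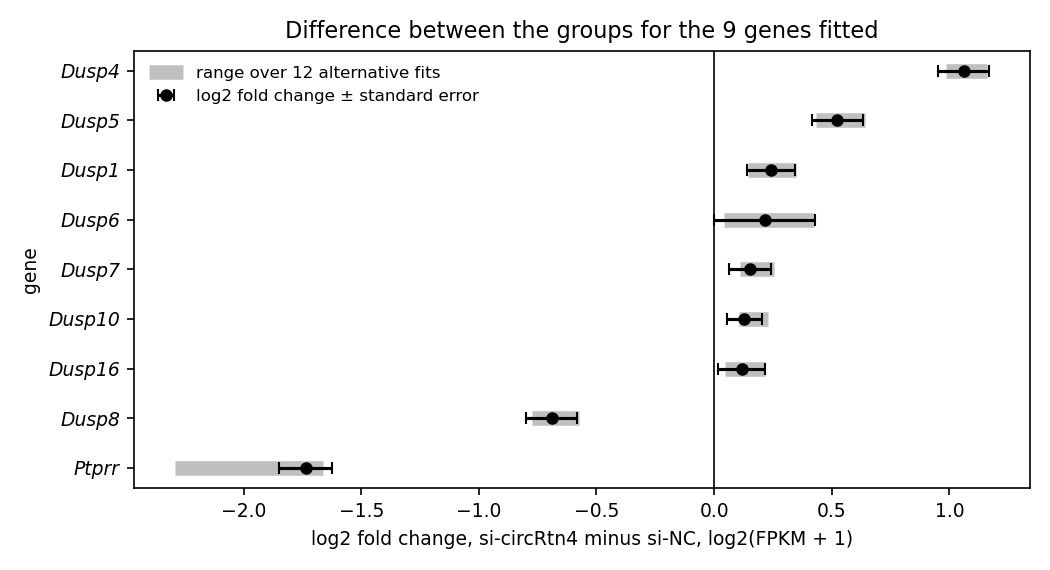
Log2 fold change of the 9 fitted genes, si-circRtn4 minus si-NC on the log2(FPKM + 1) scale, with the standard error as whiskers and a grey band for the range over 12 alternative fits. Ptprr at -1.74 and Dusp8 at -0.69 lie left of 0, Dusp4 at 1.06 and Dusp5 at 0.52 lie right of it, and the other 5 genes lie between 0.12 and 0.24.

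In the fit over the whole table, 4 of the 9 members fitted were past an adjusted p of 0.05, where 9.19% of the 12749 genes tested were. Dusp4 and Dusp5 were higher, where 4.36% of all genes were higher, and Ptprr and Dusp8 were lower, where 4.82% were lower. Groups did not overlap for these 4 and for Dusp1, against 31.7% of all genes. Because this contrast chose the members, nothing is read from these counts. The median log2 fold change was 0.15 over the 9 members and 0.0020 over all genes tested. With the replicate number as a block, 19.0% of all genes passed, among them the same 4 members. Dusp5 lost its place in 5 of 12 alternative fits, which were the fit of all detected genes and those that left out replicate 2 or 3 of si-NC, or replicate 1 or 2 of si-circRtn4. Rescaling the libraries to the same sum (TPM) moved the median of all genes to 0.09 and the share of higher genes among those past the threshold from 47.5% to 71.2%, with the same 4 members past it in the same directions.

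The libraries were alike in depth, with 14100818 to 14748929 reads recovered in si-NC and 13541198 to 15122063 in si-circRtn4. Of 15 markers of sympathetic neuroblastoma 13 had a mean of at least 1 FPKM and were tested, of which 1 rose and 5 fell. Of all 12749 genes tested, 4.36% were higher and 4.82% lower at the same threshold. The marker calls were not followed through the alternative fits. Chga, which encodes a protein of secretory granules, fell from 254.6 to 85.2 FPKM (adjusted p = 0.000641), and the catecholamine enzyme genes Dbh and Th fell from 5.99 to 0.602 FPKM (adjusted p = 0.00351) and from 2.54 to 0.712 FPKM (adjusted p = 0.00553). The transcription factor genes Phox2a and Gata2 fell from 212 to 147 FPKM (adjusted p = 0.021) and from 29.5 to 21.8 FPKM (adjusted p = 0.0144), while Elavl4, a neuronal RNA-binding protein gene, rose from 13.6 to 24.3 FPKM (adjusted p = 0.0252). The summed level of all 15 was carried by Prph and Tubb3, and its ranges overlapped, at 2271 to 2364 FPKM in si-NC and 1897 to 2290 FPKM in si-circRtn4. Markers of astrocytes, fibroblasts, blood cells and epithelia reached 1 FPKM in 0 of 4, 0 of 5, 0 of 4 and 0 of 4 genes, and of 4 oligodendrocyte markers only Mbp did. The part of these marker differences in the values of the phosphatases was not tested.

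The make-up of the 10 transcripts as a group differed accordingly. Summed over the members, the si-NC libraries held 162, 163 and 192 FPKM and the si-circRtn4 libraries 239, 270 and 244 FPKM, and most of this difference was Dusp4. The share of Dusp4 in the sum was 39.0% to 41.7% under si-NC and 53.2% to 61.3% under si-circRtn4. The inducible nuclear genes Dusp1, Dusp4 and Dusp5 together had 49.3% to 52.4% of the sum in si-NC and 62.1% to 71.4% in si-circRtn4.

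The JNK- and p38-directed genes Dusp8, Dusp10 and Dusp16 together had 15.7% to 18.0% in si-NC and 8.68% to 9.50% in si-circRtn4. In FPKM their sum was 29.3 ± 0.686 (SD, n = 3) and 23.1 ± 2.32 (SD, n = 3), a difference that came from Dusp8. Ptprr had 3.20% to 4.92% of the sum in si-NC and 0.461% to 0.656% in si-circRtn4. The shares of Dusp6 overlapped, at 21.7% to 28.8% and 16.1% to 25.2%.

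**Figure D3:**
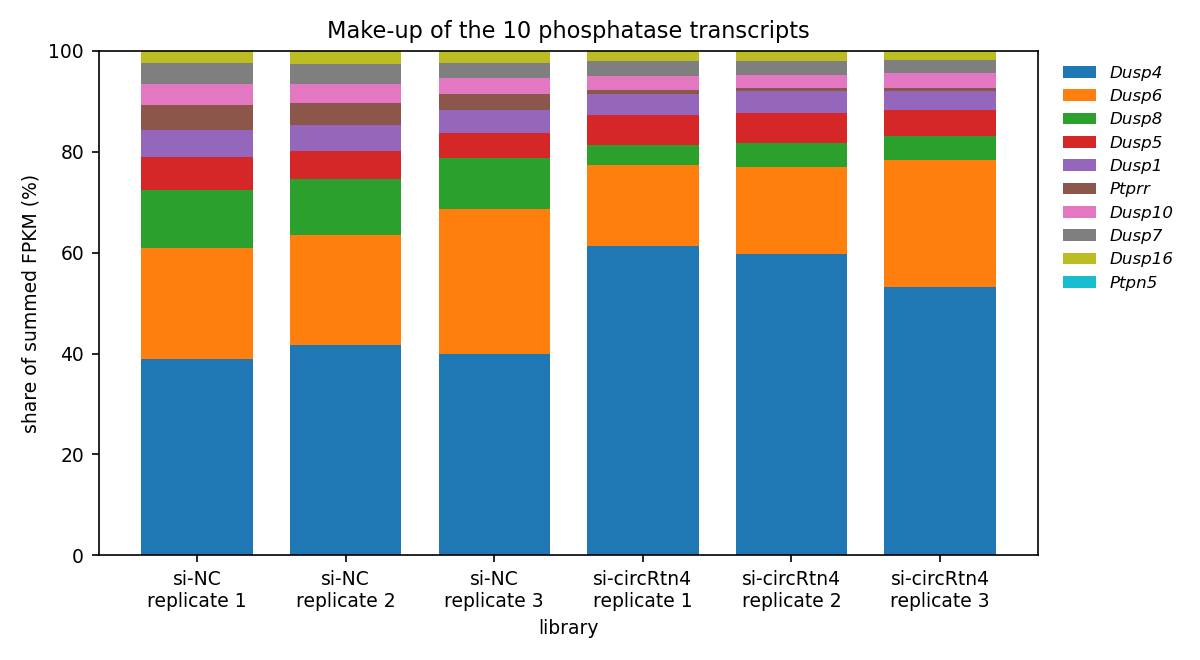
Share of each gene in the summed FPKM of the 10 members, in percent, as 1 stacked bar from 0 to 100 per library. Dusp4 takes 39.0% to 41.7% of the bar under si-NC and 53.2% to 61.3% under si-circRtn4; Ptpn5 is too low to be seen.

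Ordered by mean level, the si-NC cells had Dusp4, Dusp6, Dusp8, Dusp5, Dusp1, Ptprr, Dusp10, Dusp7, Dusp16 and Ptpn5. Neighbours in this order whose libraries overlapped were Ptprr with Dusp10 and Dusp10 with Dusp7. In the si-circRtn4 cells the order was Dusp4, Dusp6, Dusp5, Dusp8, Dusp1, Dusp7, Dusp10, Dusp16, Ptprr and Ptpn5, and Dusp5 with Dusp8, Dusp8 with Dusp1 and Dusp7 with Dusp10 overlapped. Ptprr thus moved from rank 6 to rank 9. Within a library, Dusp4 exceeded Ptprr 7.93-, 9.41- and 12.4-fold in si-NC and 101-, 129- and 81.1-fold in si-circRtn4. The ratio of Dusp5 to Dusp8 was 0.570, 0.493 and 0.480 in si-NC and 1.51, 1.27 and 1.06 in si-circRtn4, so the pair changed places in all 3 libraries.

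Promoters are shown for Dusp8, Dusp1, Dusp5 and Ptprr, in which a known response element was found. RefSeq windows in GRCm38.p6, from 250 bases before each start to 50 after it, matched 9 of the 10 members with 13 windows, all but Dusp4. The letters searched on both strands were the CRE (TGACGTCA), AP-1 (TGACTCA), EGR1 (GCGTGGGCG), ETS (CCGGAAGT) and E-box (CACGTG) sequences and the CArG box, a run of A and T between CC and GG that serum response factor is known to bind; none of the matches found overlapped another. These elements were chosen after some of the windows had been seen. The 250 bases before the start are printed in the gene's direction with the elements in capitals.
Dusp8, an internal start, minus strand, chr7:142095285-142095534: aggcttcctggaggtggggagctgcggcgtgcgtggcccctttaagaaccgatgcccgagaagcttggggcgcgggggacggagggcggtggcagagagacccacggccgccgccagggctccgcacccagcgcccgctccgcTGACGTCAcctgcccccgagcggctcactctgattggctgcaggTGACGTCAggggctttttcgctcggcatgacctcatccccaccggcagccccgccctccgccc
Dusp1, minus strand, chr17:26508473-26508722: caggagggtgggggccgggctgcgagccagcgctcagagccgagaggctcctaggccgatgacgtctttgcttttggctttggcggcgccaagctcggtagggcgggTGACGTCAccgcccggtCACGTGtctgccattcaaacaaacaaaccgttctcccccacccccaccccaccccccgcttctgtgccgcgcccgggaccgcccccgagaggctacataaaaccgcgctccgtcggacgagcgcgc
Dusp5, plus strand, chr19:53528895-53529144: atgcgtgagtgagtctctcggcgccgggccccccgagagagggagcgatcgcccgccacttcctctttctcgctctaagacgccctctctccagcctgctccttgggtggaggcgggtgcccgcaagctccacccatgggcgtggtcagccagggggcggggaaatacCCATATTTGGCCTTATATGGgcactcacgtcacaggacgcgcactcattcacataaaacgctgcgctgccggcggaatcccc
Ptprr, an internal start, plus strand, chr10:116177008-116177257: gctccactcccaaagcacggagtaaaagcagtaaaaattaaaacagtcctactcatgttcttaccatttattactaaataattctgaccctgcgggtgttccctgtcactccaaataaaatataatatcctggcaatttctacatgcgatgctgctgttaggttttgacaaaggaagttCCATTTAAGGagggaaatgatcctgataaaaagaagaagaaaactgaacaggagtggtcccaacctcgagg

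Dusp8 held 2 CREs, 107 and 63 bases before this start, and Dusp1 held 1 CRE at 143 bases and 1 E-box at 126 bases. The CRE is the element of cAMP-responsive transcription factors, and 1.79% of 32851 windows of the genome hold it. Dusp5 held 2 CArG boxes side by side, 82 and 72 bases before its start, against 1.63% of windows with any. The 4 windows of Ptprr held 1 CArG box, seen from a pair of neighbouring internal starts at 71 and 164 bases. AP-1, EGR1 and ETS letters, present in 5.20%, 0.612% and 3.89% of windows, were found in none of the 13, and E-boxes are in 7.15%. Whether these elements have a part in the members' differences was not tested. No binding was measured.

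Among all other genes tested, those with the pattern across the 6 libraries most like that of Ptprr were Fkbp1b, Casd1 and Unc5a, with Pearson's r of 0.999, 0.998 and 0.998 on log2(FPKM + 1). Fkbp1b, a regulator of calcium release channels, had means of 13.8 FPKM in si-NC and 5.95 FPKM in si-circRtn4. Unc5a, a netrin receptor, went from 52.6 to 25.4 FPKM, and Casd1, a sialic acid acetyltransferase, from 24.6 to 18.4 FPKM. These correlations rest largely on the difference between the groups, which 357 genes shared at r above 0.95.

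Within 1 Mb of Ptprr, 0 of 15 neighbours tested passed an adjusted p of 0.05 in limma, while 2 were higher and 2 lower at an unadjusted p under 0.05. With the replicate block 2 passed and with limma-voom 1 passed, all higher in the si-circRtn4 cells, whereas Ptprr was lower. The lowest adjusted p was 0.0556 for Thap2, with means of 5.24 and 6.85 FPKM. The docking protein gene Frs2, which couples growth factor receptors to Ras, is among them and had means of 10.3 and 9.23 FPKM. Near Dusp4, 1 of 10 neighbours passed, the tankyrase gene Tnks, which fell from 18.2 to 13.9 FPKM (adjusted p = 0.0279). At an unadjusted p under 0.05, 3 were higher and 1 lower, where 3305 of all 12749 genes were under it. With limma-voom 2 were higher and 1 lower, and with the replicate block 1 was higher and 2 lower. Of all genes tested 9.19% passed in limma, 12.8% with limma-voom and 19.0% with the block. These neighbours were looked at after the members' values were known.

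Outside the members, 139 genes of the MAP kinase pathway or of the members' phosphatase families were listed, and 108 of them were tested. They are called pathway genes here, and the other phosphatases were listed by family, whether or not they act on MAP kinases. In the si-circRtn4 libraries 10 rose and 9 fell, 17.6% of those tested, with a median log2 fold change of 0.02. Over all 12749 genes tested 9.19% passed, 4.36% higher and 4.82% lower. With the replicate number as a block 18 rose and 15 fell, where 19.0% of all genes passed. After rescaling to TPM 17 rose and 4 fell, where 10.7% of all genes passed. With limma-voom 12.8% of all genes passed, and 3305 had an unadjusted p under 0.05 in limma. The counts of the lists below stand beside these same shares, and nothing is read from them. Leaving out any 1 library brought the number of pathway genes past the threshold from 19 to between 5 and 12. The count of 5 came without si-NC replicate 2. Of the 19 genes, 4 passed in all 12 alternative fits (Spred3, Trib1, Dusp26 and Nr4a3), and 0 changed direction in any.

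Of the other dual-specificity and KIM phosphatases, 8 of 19 were tested, and 2 fell. None rose in limma, and 0 were higher at an unadjusted p under 0.05 or with limma-voom. Dusp26, an atypical phosphatase known for its expression in neural tissue and neuroblastoma, measured 8.19, 4.84 and 5.02 FPKM under si-NC and 1.83, 1.37 and 1.61 FPKM under si-circRtn4. The groups did not overlap, though si-NC replicate 1 stood above its group, with a log2 fold change of -1.40 ± 0.18 (SE; adjusted p = 0.00553). Dusp28 fell from 12.2 to 8.22 FPKM (adjusted p = 0.017) and lost the threshold in 3 of 12 alternative fits. The classical members outside the 10, Dusp2 and Dusp9, were at 4.31 and 4.15 FPKM and at 0.472 FPKM or less.

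Of 26 tested genes for Ras, Raf, MAP kinase kinases and MAP kinases, 0 rose and 2 fell in limma, with a median log2 fold change of 0.0065. At an unadjusted p under 0.05 there were 4 higher and 6 lower, with limma-voom 3 and 2, and with the replicate block 2 and 5. Mapk3, which encodes ERK1, had means of 59.1 ± 3.10 and 49.5 ± 5.92 FPKM (SD, n = 3 each) and did not pass (adjusted p = 0.154). Mapk10, the JNK gene expressed mainly in the nervous system, fell from 2.75 to 1.60 FPKM (adjusted p = 0.0465), and the Ras relative Mras fell from 7.54 to 5.08 FPKM (adjusted p = 0.0468). Both lost the threshold in 7 of 12 alternative fits.

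Of 13 tested MAP kinase kinase kinases, 3 rose and 0 fell in limma, with 1 lower at an unadjusted p under 0.05 and 0 lower with limma-voom; with the replicate block 4 rose and 1 fell. Map3k5, the stress kinase ASK1, rose from 3.09 to 5.33 FPKM (adjusted p = 0.0206), Map3k9 from 3.00 to 4.87 FPKM (adjusted p = 0.0247) and Map3k13 from 3.09 to 4.28 FPKM (adjusted p = 0.0432). These kinases act above JNK, and their transcripts lay at low levels in both groups. They lost the threshold in 6, 5 and 7 of 12 alternative fits.

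Of 22 tested scaffolds, adaptors and substrate kinases, 1 rose and 2 fell, and with the replicate block 2 rose and 3 fell. Mapkapk2, a kinase activated by p38, rose from 8.23 to 13.1 FPKM (adjusted p = 0.0309). The adaptor Gab2 fell from 15.0 to 10.2 FPKM (adjusted p = 0.0318), and Rps6ka6, of the ribosomal S6 kinase family, fell from 6.41 to 4.57 FPKM (adjusted p = 0.0288). They lost the threshold in 5, 6 and 7 of 12 alternative fits.

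Of 18 tested inhibitors of Ras-ERK signalling outside the phosphatases, 2 rose and 0 fell in limma; 0 were lower at an unadjusted p under 0.05 or with limma-voom, and with the replicate block 5 rose. Spred3 measured 9.95, 8.97 and 9.32 FPKM under si-NC and 14.8, 14.3 and 14.1 FPKM under si-circRtn4. The groups were far apart against their spread, with a log2 fold change of 0.56 ± 0.07 (SE; adjusted p = 0.00518). Spry4, a Sprouty protein gene that ERK signalling induces, rose from 6.38 to 10.1 FPKM (adjusted p = 0.0184) but lost the threshold in 4 of 12 alternative fits, and Spry2 had a log2 fold change of 0.40 without passing (adjusted p = 0.0784), though it passed with the replicate block, with TPM and with limma-voom.

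Genes known as transcriptional outputs of ERK went both ways. Of 21 tested, 4 rose and 3 fell, with a median log2 fold change of 0.05. Trib1, a pseudokinase gene, measured 4.31, 3.63 and 3.53 FPKM under si-NC and 9.02, 7.74 and 8.73 FPKM under si-circRtn4. Its groups did not overlap, with a log2 fold change of 0.98 ± 0.10 (SE; adjusted p = 0.00279). Etv4, an ETS factor induced by ERK, was at 39.4, 38.8 and 50.5 FPKM and then at 66.9, 69.2 and 77.6 FPKM, a log2 fold change of 0.73 ± 0.12 (SE; adjusted p = 0.0117). Its close relative Etv5 had means of 41.3 and 39.9 FPKM. Plaur rose from 10.98 to 16.3 FPKM (adjusted p = 0.0342) and Phlda1 from 2.39 to 4.201 FPKM (adjusted p = 0.0298), and they lost the threshold in 5 and 6 of 12 alternative fits.

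The genes of this list that fell include 2 orphan nuclear receptors. Nr4a3, one of them and an immediate-early gene, measured 2.84, 2.19 and 2.42 FPKM under si-NC and 0.986, 0.676 and 0.942 FPKM under si-circRtn4. The groups did not overlap, with a log2 fold change of -0.90 ± 0.13 (SE; adjusted p = 0.0099). Nr4a2, of the same family, fell from 3.34 to 1.58 FPKM (adjusted p = 0.0481) but lost the threshold in 9 of 12 alternative fits. Ccnd1, which encodes cyclin D1, fell from 80.1 to 58.6 FPKM (adjusted p = 0.0097). Egr1, a widely used readout of ERK, had means of 12.8 ± 2.19 and 12.7 ± 4.10 FPKM (SD, n = 3 each).

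**Figure D4:**
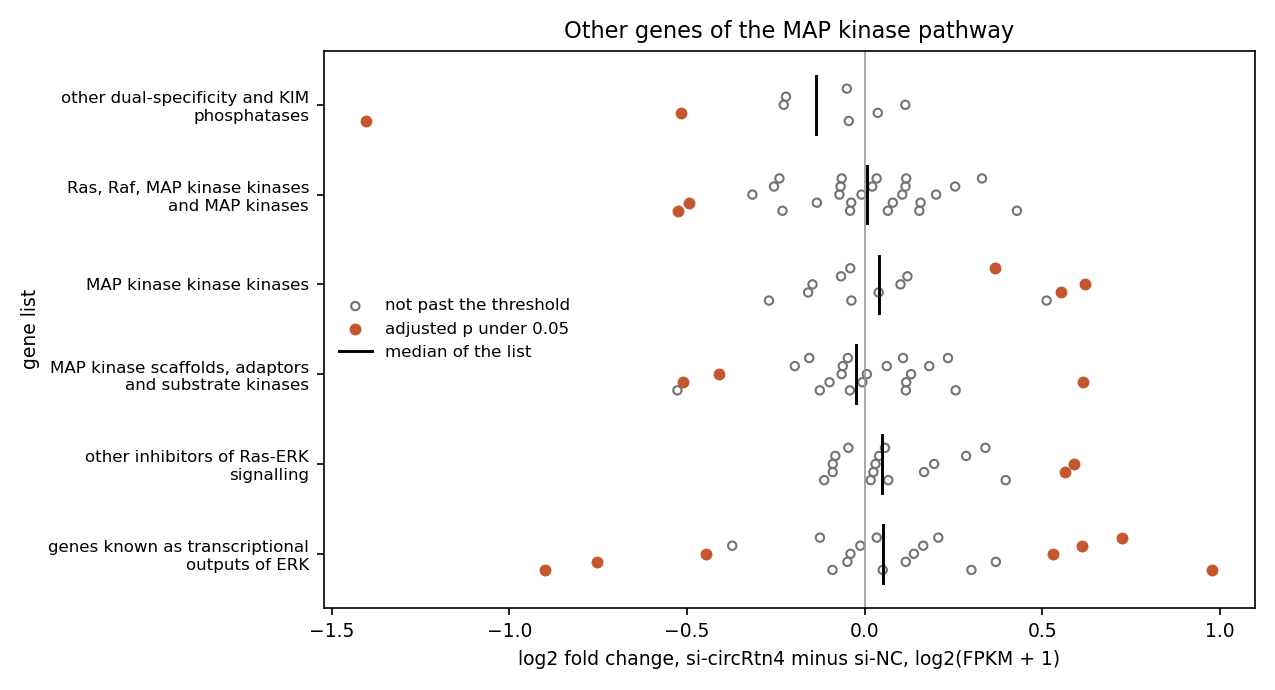
Log2 fold change of the 108 tested pathway genes outside the members, si-circRtn4 minus si-NC on the log2(FPKM + 1) scale, 1 point per gene and 1 row per list; filled points have an adjusted p under 0.05 in limma and black bars mark the list medians. The list medians lie between -0.14 and 0.05, Dusp26 is the point farthest left at -1.40, and Trib1 is the point farthest right at 0.98.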

How the data were processed

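The authors deposited 1 FPKM value per gene and library for 54532 genes, with gene lengths and coordinates; 6 columns of other samples in the table were not used. The aligner, counting tool, strand setting and test are not given in the paper's text. The submitters' processing notes name Bowtie 0.12.2 and the builds mm8 and mm9, whereas the coordinates of 53499 genes (98.1%) equal those of GENCODE M21 (GRCm38), among them 9 of the 10 members; Dusp1 ends at 26508519 in the table and at 26562128 in GENCODE M21. FPKM multiplied by gene length gave whole read steps for 100% of the values within 0.01, which is where read numbers come from.

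Of 28442 genes above 0 in any library, the 12749 whose mean reached 1 FPKM were fitted. The deposited FPKM values entered the fit as log2(FPKM + 1), with limma 3.58.1 (lmFit, eBayes with a trend) under R 4.3.3. P-values were two-sided and adjusted by Benjamini-Hochberg over all genes tested. The labels do not say that the libraries were separate cultures, so p-values measure the spread between these libraries, which may be technical. The fit was also run on simulated data whose libraries were independent of one another. Here libraries of the same number were correlated in their deviations, so nothing is read from that run. Python 3.11.15, numpy 2.4.6, pandas 2.3.3 and matplotlib 3.10.9 were used for the rest.

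Groups came from the labels, which give both groups the numbers 1 to 3. The correlation of each library's deviations from its group mean was 0.331, 0.19 and 0.226 between libraries sharing a number and 0.00913 at most otherwise, so the numbers were treated as pairs in the fit with a block; why they are shared is not given in the sources used here. Alternatives were another pseudocount, all detected genes, TPM, quantile normalization, limma-voom on recovered reads, the block, and leaving out each library. The genes named were all members, up to 4 passing genes in each direction of each pathway list, and the 3 genes most correlated with Ptprr; the neighbours of Ptprr and Dusp4 and genes given as not passing were added after their values were seen. Members and lists were chosen with earlier results of these data known. Of the 3 microRNA sites found, 1 is not reported here.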

Additional observations from a re-analysis of the deposited data

How the results depend on the processing

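Each of the 9 fitted members kept its direction in all 12 alternative fits, and 3 or 4 of them passed, with Dusp5 as the one lost. The log2 fold change of Ptprr ranged from -2.29 to -1.66, of Dusp4 from 0.99 to 1.16, of Dusp8 from -0.78 to -0.58 and of Dusp5 from 0.43 to 0.64. Of all genes, 1171 passed (556 higher, 615 lower). With all detected genes tested, 471 passed (210 higher, 261 lower), with 6 pathway genes in place of 19. TPM gave 972 higher and 393 lower, and limma-voom on recovered reads gave 902 higher and 29 pathway genes. With replicate number as a block, 2428 passed (1185 higher, 1243 lower), with 33 pathway genes, and no call of a member changed. Leaving out 1 library gave 380 to 826 genes, 163 to 407 higher and 217 to 419 lower, and 5 to 12 pathway genes, in fits of fewer samples; the lowest counts came without si-NC replicate 2. The causes of the other shifts were not tested. With 3 libraries per group, the differences seen for Dusp1, Dusp6, Dusp7, Dusp10 and Dusp16 were not told from 0. Ptpn5 had too few reads for any comparison.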

Other observations

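Of the listed pathway genes, 31 lay under the mean of 1 FPKM and were therefore not tested. The groups of 4 of them did not overlap, and these 4 were picked out for that after their values were seen. Among all genes tested, whose means reached 1 FPKM, 31.7% had such groups. The share among genes under 1 FPKM was not computed. Egr2, an immediate-early transcription factor, measured 0.565, 0.367 and 0.547 FPKM under si-NC and 1.014, 0.908 and 1.11 FPKM under si-circRtn4. Egr3, of the same family, was at 0.481, 0.630 and 0.681 FPKM and then at 0.861, 1.36 and 1.56 FPKM. Spry3, a Sprouty gene, was at 0.487, 0.431 and 0.822 FPKM and then at 1.002, 1.29 and 1.33 FPKM. The atypical phosphatase gene Dusp23 measured 0.940, 0.541 and 0.811 FPKM under si-NC and 1.047, 1.048 and 1.02 FPKM under si-circRtn4. All 4 were higher in the si-circRtn4 libraries, at levels where single reads weigh heavily.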
